A study of Mus musculus with 111 samples.

Results

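Fat cells lie between the fibres of skeletal muscle and around the muscle, and their RNA is part of any whole-muscle sample. The 10 genes followed here are best known from adipocytes: Adipoq, Retn, Lep and Cfd (secreted proteins), Plin1 and Cidec (lipid droplet proteins), Fabp4 (a fatty acid carrier), Scd1 (a fatty acid desaturase), Pparg (the regulator of the fat cell programme) and Ucp1 (the uncoupling protein of brown fat). Each gene was read from probe sets that the platform annotation assigns to that gene alone, and where a gene had several, the one with the highest mean signal was used. Of the 10 genes, 8 had such a probe set and all 8 passed the filter on low signals, among 16029 genes tested of 18194 with a probe set. Plin1 and Cfd had no probe set of their own in the annotation used and were not analysed here.

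The arrays came from the gastrocnemius, the large calf muscle, of male C57BL/6 mice that were 8 weeks old at the start, in a study of muscle wasting by disuse. In the casting animals the right hindlimb was held in a cast and the left leg was the control, at 2, 7 or 14 days (10, 7 and 9 cast legs; 9, 8 and 9 control legs). In the tenotomy animals an Achilles tendon was cut, which unloads the calf muscle, and both legs were taken at the same days (5, 7 and 5 arrays of each leg). Sham animals had the tendon exposed and handled but not cut (3, 7 and 8 right legs at days 2, 7 and 14), and 7 naive animals gave a right leg each without any treatment. The series' description has the tendon of the right leg cut, but each array's own label marks the left leg as tenotomy and the right as control. These array labels were kept, so "left (labelled tenotomy)" and "right (labelled control)" are used below, and every difference between those legs changes sign under the other reading. Each animal series has its own numbering, so the surgery and the animal series it was done in cannot be told apart when tenotomy arrays are set against sham arrays.

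Adipocytes store triglyceride in a lipid droplet and secrete hormones into the blood. The nuclear receptor encoded by Pparg, with the C/EBP factors, switches on their differentiation and keeps genes such as Adipoq, Fabp4 and Cidec active. In muscle, adiponectin, leptin and resistin are therefore mostly a readout of the fat cells that were taken with the fibres. Fabp4 is also made by capillary endothelium and macrophages, and Scd1 by other cells that synthesise lipid, so these are less specific. In bulk RNA, fewer fat cells and less RNA per fat cell cannot be told apart.

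The promoter windows of 4 members are shown because Adipoq, Retn and Cidec varied together from animal to animal while Lep did not follow them closely. Each is the 250 bases before a gene's start on the gene's own strand, from RefSeq on build GRCm38.p6: Adipoq at chr16:23146286-23146535 (plus strand), Retn at chr8:3655520-3655769 (plus), Cidec at chr6:113434765-113435014 and chr6:113435761-113436010 (minus, from 2 annotated starts) and Lep at chr6:29059971-29060220 (plus). Capitals mark a match, on either strand, to the motifs searched.
Adipoq: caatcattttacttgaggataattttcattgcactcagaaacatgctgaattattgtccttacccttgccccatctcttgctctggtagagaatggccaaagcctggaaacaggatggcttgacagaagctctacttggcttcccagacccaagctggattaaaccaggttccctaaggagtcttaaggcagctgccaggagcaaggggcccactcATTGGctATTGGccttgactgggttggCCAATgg
Retn: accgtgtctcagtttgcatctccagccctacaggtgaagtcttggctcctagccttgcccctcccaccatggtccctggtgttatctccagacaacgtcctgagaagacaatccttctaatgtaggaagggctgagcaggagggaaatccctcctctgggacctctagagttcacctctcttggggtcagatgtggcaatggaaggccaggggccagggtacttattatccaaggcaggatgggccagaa
Cidec, first start: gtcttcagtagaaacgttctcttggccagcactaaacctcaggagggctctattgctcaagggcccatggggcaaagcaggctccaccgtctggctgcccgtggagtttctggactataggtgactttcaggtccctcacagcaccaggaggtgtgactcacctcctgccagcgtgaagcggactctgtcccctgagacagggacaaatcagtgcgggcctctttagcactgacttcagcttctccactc
Cidec, second start: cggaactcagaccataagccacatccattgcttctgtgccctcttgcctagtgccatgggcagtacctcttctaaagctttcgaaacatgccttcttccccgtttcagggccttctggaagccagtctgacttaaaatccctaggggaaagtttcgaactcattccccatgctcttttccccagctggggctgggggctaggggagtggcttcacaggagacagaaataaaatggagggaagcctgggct
Lep: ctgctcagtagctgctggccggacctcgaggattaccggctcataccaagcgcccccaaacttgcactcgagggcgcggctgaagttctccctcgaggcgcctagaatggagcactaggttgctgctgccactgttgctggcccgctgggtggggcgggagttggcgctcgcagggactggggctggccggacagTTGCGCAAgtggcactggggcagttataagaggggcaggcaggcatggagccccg
The motifs were the nuclear receptor element AGGTCA, 2 such elements spaced by 1 base, the C/EBP palindrome TTGCGCAA, the CCAAT box and the TATAAA box. Of the 10 genes, 8 were in the promoter table, with 11 windows, and Fabp4 and Scd1 were not. The Adipoq window held 3 CCAAT matches, which 33.8% of all 32851 windows of this length also hold at least once. The Lep window held 1 TTGCGCAA match, found in 0.164% of windows. None of these letters were found in the Retn window or in either Cidec window. AGGTCA was in 3 of the 11 windows (of Pparg and Ucp1; 14.0% of all windows), the spaced pair in none (0.0335%) and TATAAA in 1 (of Pparg; 12.4%). Adipoq, Retn and Cidec shared none of the searched motifs in these windows. Fabp4 and Scd1 also varied with Adipoq but had no window to search. Most Lep values lay in the background range, which limits how closely Lep could follow. Whether these motifs bear on the shared variation was not tested.

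Muscle identity was clear on every array: Acta1 (skeletal actin), Ckm (muscle creatine kinase) and Myh4 (a fast myosin) had signals of at least 3744 on all 111 arrays. Signals were scaled by the authors to a common trimmed mean and the arrays' medians ran from 16.14 to 26.36. The ratio of the 3' to the 5' actin control probe sets, a measure used for RNA integrity and labelling, differed between groups. Its group means on the log2 scale were -1.31 to -1.12 in sham and naive arrays and -0.73 to -0.33 in casting arrays. They were -0.83 to -0.38 in left and -0.02 to 0.11 in right tenotomy legs, so legs of the same animals differed too. What this actin ratio reflects here was not tested. The group means of the 3' to 5' ratio for Gapdh, also on the log2 scale, lay between -0.29 and -0.17. Nothing in the labels says how much fat was trimmed from a muscle.

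Detection set what could be read. A signal was counted as present above the array's 40th percentile (9.65 to 17.84 signal units). Adipoq, Retn, Fabp4 and Scd1 were above it on all 111 arrays and Cidec on 105. Lep and Pparg passed on 39 arrays each and Ucp1 on 6, so for these 3 genes most values lie in the background range. Signals of different probe sets are not on one scale and were not compared between genes.

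**Figure D1:**
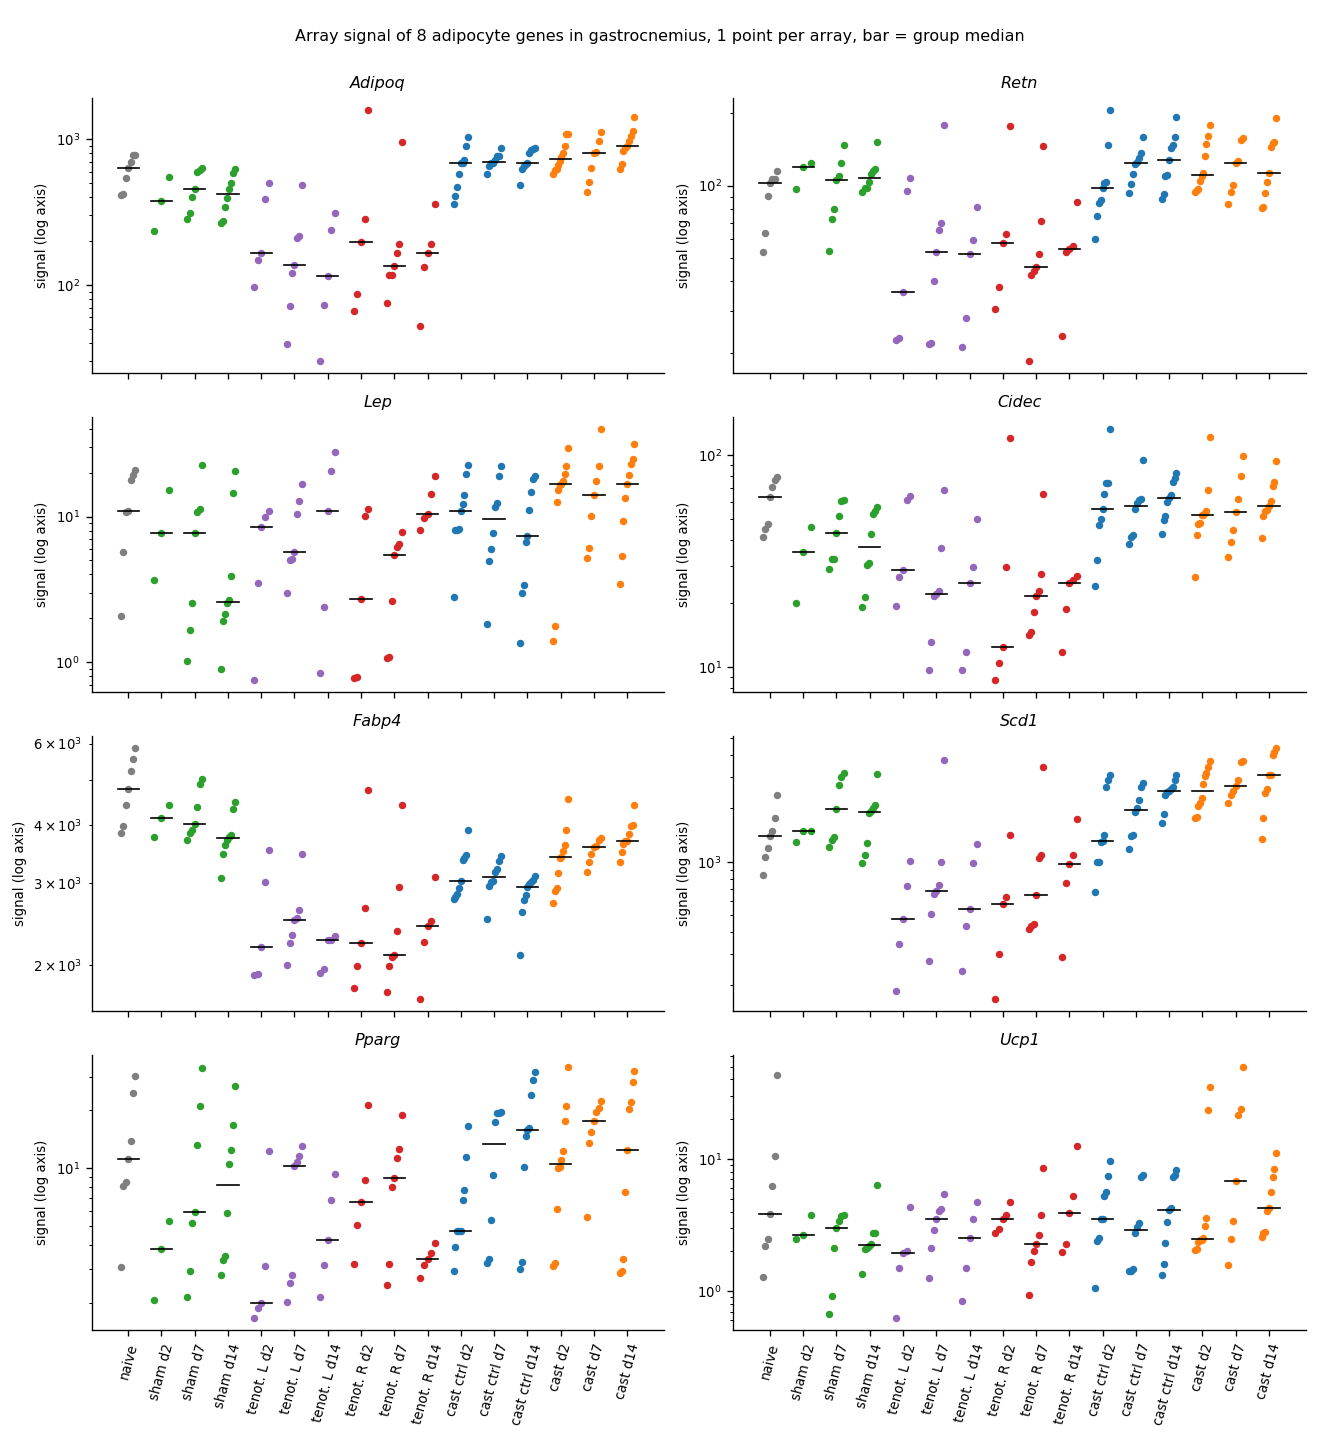
Signal of each adipocyte gene (log axis, authors' signal units) on each of the 111 arrays, by group; tenot. L and tenot. R are the left (labelled tenotomy) and right (labelled control) legs of the tenotomy animals, cast ctrl the control legs of the casting animals, d the day, and the bar is the group median. Adipoq, Retn, Cidec, Fabp4 and Scd1 sit lower in most tenotomy legs of either side than in sham or casting arrays. Left-leg Cidec overlaps sham at each day. In right legs 1 array at day 2 (Adipoq 1587) and 1 at day 7 (Adipoq 963.4) sit far above the others of their groups.

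Adipoq encodes adiponectin, the hormone that fat cells secrete in the largest amount. Its signal ran from 30.23 to 1587, and the low values were in the tenotomy animals. Naive arrays lay between 416.5 and 784.8 (median 635). Sham arrays read 234.2, 379.5 and 550.5 at day 2, ran from 285.7 to 639.1 (median 455.8) at day 7 and from 266.8 to 628.3 (median 424.0) at day 14. Sham and naive arrays overlapped at each day.
In right (labelled control) tenotomy legs the Adipoq signals were 66.23, 87.08, 196.5, 284.4 and 1587 at day 2, 75.77 to 963.4 (median 134.9) at day 7, and 52.26, 133.6, 165.4, 190.9 and 358.2 at day 14. In left (labelled tenotomy) legs they were 96.79, 148.5, 165.4, 391.7 and 502.0 at day 2, 39.28 to 486.8 (median 138.2) at day 7, and 30.23, 72.47, 114.5, 239.2 and 310.7 at day 14. Most arrays of both legs were below every sham array of their day, and a few reached into or above the sham range.
Against sham, Adipoq was 0.386-fold in right legs at day 7 (log2 difference -1.37, SE 0.38, adjusted p = 0.00165) and 0.374-fold at day 14 (-1.42, SE 0.40, adjusted p = 0.00278). In left legs it was 0.319-fold at day 7 (-1.65, SE 0.38, adjusted p = 0.000545) and 0.289-fold at day 14 (-1.79, SE 0.40, adjusted p = 0.000397). These values and those below are from limma with Benjamini-Hochberg adjustment over all 16029 genes, on log2 of the signal plus 3.982, a scale that understates the change of low signals. At day 2 Adipoq did not pass in either leg (-0.71, adjusted p = 0.31 right; -0.75, adjusted p = 0.416 left). Without the animal whose right leg read 1587, the right-leg difference at day 2 was -1.42 with an adjusted p of 0.0157.

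The animal with 1587 in its right leg had 502.0 in its left leg, the highest left value of day 2. The animal with 963.4 in its right leg at day 7 had 486.8 in its left, again the highest of its group. Both animals were also the highest of their right-leg groups for Retn (176.5 and 145.5), Cidec (120.5 and 65.52), Fabp4 (4774 and 4432) and Scd1 (1423 and 3425). The high values of an animal were thus shared by several adipocyte genes and, for Adipoq, by both legs.

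Retn encodes resistin, a hormone that mouse fat cells secrete. Naive arrays read 52.87 to 115.0 (median 102.9), and sham arrays 96.85, 119.6 and 124.7 at day 2, 53.56 to 147.5 (median 105.0) at day 7 and 93.77 to 152.4 (median 107.85) at day 14. Right tenotomy legs read 23.66, 52.74, 54.25, 56.23 and 85.72 at day 14, and left legs 21.29, 28.1, 51.64, 59.54 and 81.65. At day 14 every tenotomy array of either leg was below every sham array. Retn was 0.482-fold in right (log2 difference -1.05, SE 0.30, adjusted p = 0.00349) and 0.422-fold in left legs (-1.24, SE 0.30, adjusted p = 0.00123). At day 7 the medians were 45.95 in right and 52.96 in left legs with overlap into the sham range up to 145.5 and 179.5, and the difference was -0.83 in each leg (SE 0.29; adjusted p = 0.0132 right and 0.0284 left). At day 2 left legs read 22.8, 23.19, 35.91, 94.63 and 107.1, and passed (-1.22, SE 0.39, adjusted p = 0.0295), while right legs at 30.47, 37.69, 57.73, 62.78 and 176.5 did not (-0.87, adjusted p = 0.0734). The left-leg calls at days 2 and 7 were each lost when any of 5 animals was left out, with adjusted p up to 0.125 and 0.118, and in fits on the groups compared alone (adjusted p = 0.101 and 0.0916). The right-leg call at day 7 was lost without 1 tenotomy animal (adjusted p = 0.082), and right legs at day 2 passed without the animal at 176.5 (-1.25, adjusted p = 0.0073).

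Lep encodes leptin, whose level follows the size of the fat store. Naive arrays read 2.065 to 20.82 (median 10.94), and casting group medians lay between 7.369 and 16.74. Right tenotomy legs at day 14 read 8.037, 9.771, 10.46, 14.29 and 19.07, against 0.8948 to 20.54 (median 2.606) in sham. The groups overlapped and Lep did not pass the test (log2 difference 0.90, SE 0.42, adjusted p = 0.0863). It passed when either of 2 sham animals was left out (adjusted p = 0.0442 and 0.0309). Unlike Adipoq, Retn and Scd1, Lep gave positive differences in both legs at day 14 (0.61, adjusted p = 0.333 in left legs), neither past the threshold. Lep was not called in any comparison.

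Cidec encodes a protein that enlarges lipid droplets. Its signals were 41.11 to 79.0 in naive arrays (median 63.55), and 20.02, 35.05 and 46.04, 29.04 to 61.47 (median 43.07) and 19.25 to 56.99 (median 36.825) in sham arrays at days 2, 7 and 14. Right tenotomy legs read 8.734, 10.51, 12.51, 29.84 and 120.5 at day 2, 14.26 to 65.52 (median 21.6) at day 7, and 11.78, 18.82, 24.95, 25.9 and 26.85 at day 14. Most right-leg arrays were in or below the low end of the sham range, and the 2 high animals were above it. The right-leg difference passed at day 7 (0.585-fold; log2 difference -0.77, SE 0.30, adjusted p = 0.0322), a call that was lost without any of 6 animals (adjusted p up to 0.0806). It did not pass at day 2 (-0.45, adjusted p = 0.447) or day 14 (-0.68, adjusted p = 0.0903). Left legs read 19.46, 26.51, 28.75, 61.74 and 64.08 at day 2, 9.751 to 68.18 (median 22.23) at day 7, and 9.673, 11.81, 24.89, 29.8 and 50.18 at day 14. Of the left-leg arrays 1 of 5, 5 of 7 and 2 of 5 were below every sham array at days 2, 7 and 14, and the groups overlapped. None of the left-leg differences passed (0.16, -0.75 and -0.63; adjusted p = 0.879, 0.0686 and 0.166). At day 7 the left-leg difference passed without either of 2 animals (adjusted p = 0.0118 and 0.0469).

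Fabp4 encodes the fatty acid carrier of adipocytes, also made by capillary endothelium. Naive arrays read 3850 to 5863 (median 4790). Sham arrays read 3774, 4136 and 4433 at day 2, 3709 to 5038 (median 4028) at day 7 and 3083 to 4489 (median 3753.5) at day 14. Left tenotomy legs read 1902, 1916, 2186, 3020 and 3539 at day 2, 2000 to 3465 (median 2497) at day 7, and 1924, 1955, 2263, 2268 and 2313 at day 14. At each day every left-leg array was below every sham array. The left-leg folds against sham were 0.593, 0.589 and 0.571 (log2 differences -0.75, -0.76 and -0.81; SE 0.18, 0.13 and 0.14; adjusted p = 0.00175, 2.94e-06 and 3.23e-06).
Right legs read 1787, 1992, 2226, 2652 and 4774 at day 2, 1750 to 4432 (median 2097) at day 7, and 1691, 2241, 2427, 2482 and 3098 at day 14. Only the 2 high animals and, at day 14, the array at 3098 reached the sham range. The right-leg folds were 0.613, 0.570 and 0.623 (log2 differences -0.71, -0.81 and -0.68; SE 0.18, 0.13 and 0.14; adjusted p = 0.000665, 9.61e-08 and 2.52e-05). None of the 6 Fabp4 calls was lost when an animal was left out.
The other Fabp4 probe sets did not follow. One with a mean signal of 572.1 was higher than sham in right legs at day 7 (log2 difference 0.83, adjusted p = 8.21e-05) and day 14 (0.55, adjusted p = 0.0205) and in left legs at day 7 (0.55, adjusted p = 0.0212). One with a mean of 131.5 was lower in right legs at day 7 (-0.65, adjusted p = 0.0025) and passed in no other comparison with sham, and one with a mean of 66.24 passed in none. When a gene's probe sets were averaged, the right-leg difference at day 14 was 0.13 (adjusted p = 0.401), opposite in sign, and no comparison of Fabp4 with sham passed. The lower Fabp4 against sham is therefore a statement about the brightest probe set. Residuals of the other 3 probe sets around their group means correlated with those of the used one at r of 0.49, 0.03 and 0.22 across the 111 arrays.

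Scd1 encodes the desaturase that makes monounsaturated fatty acids. Naive arrays read 839.9 to 2392 (median 1397), and sham arrays 1298, 1490 and 1501 at day 2, 1211 to 3187 (median 1975) at day 7 and 981.2 to 3120 (median 1905) at day 14. Left tenotomy legs read 185.1, 343.9, 475.9, 732.3 and 1004 at day 2, 273.3 to 3777 (median 679.8) at day 7, and 241.4, 434.2, 538.2, 982.6 and 1264 at day 14. Right legs read 168.4, 300.3, 577.8, 630.8 and 1423 at day 2, 417.8 to 3425 (median 651.0) at day 7, and 288.4, 754.4, 967.8, 1096 and 1751 at day 14. All left-leg arrays were below sham at day 2, and at the other days and in right legs a few arrays overlapped.
The left-leg folds against sham were 0.330, 0.395 and 0.356 at days 2, 7 and 14 (log2 differences -1.60, -1.34 and -1.49; SE 0.49, 0.36 and 0.38; adjusted p = 0.0218, 0.00357 and 0.00203). The right-leg folds were 0.341, 0.407 and 0.496 (-1.55, -1.30 and -1.01; SE 0.49, 0.36 and 0.38; adjusted p = 0.00781, 0.00171 and 0.0288). The day-2 calls were lost without any of 4 animals in left legs (adjusted p up to 0.098) and without 1 in right legs (0.0546), and the right-leg call at day 14 without any of 3 (adjusted p up to 0.216). The second Scd1 probe set (mean 110.0; residual r of 0.82 with the first) passed in the same direction at days 7 and 14 in both legs (-1.30 and -1.65 left, -1.16 and -1.21 right), but not at day 2 (-1.003, adjusted p = 0.194 left; -1.08, adjusted p = 0.0768 right).

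Pparg and Ucp1 were near background. Pparg read 3.06 to 30.24 (median 11.23) in naive arrays and 2.687, 3.141, 3.361, 3.603 and 4.101 in right tenotomy legs at day 14, all inside the range of sham at that day (2.796 to 26.82) but for the lowest. Its differences from sham were between -0.74 and 0.63 over the 6 comparisons, none past the threshold (lowest adjusted p 0.155). Ucp1 was 1.269 to 43.13 (median 3.842) in naive arrays and differed from sham by -0.22 to 0.38, with no call.

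By comparison, of the 8 measured genes the right legs had 2 called lower than sham at day 2 (of all tested genes 15.5% were called lower and 35.1% in either direction), 5 at day 7 (17.7% lower, 41.3% in all) and 4 at day 14 (15.3% lower, 36% in all). The left legs had 3 called lower at day 2 (5.69% of all genes lower, 10.1% in all), 4 at day 7 (9.47% lower, 19.2% in all) and 4 at day 14 (10.8% lower, 20.8% in all). No member was called higher. The median log2 difference of the 8 genes was -0.65, -0.79 and -0.71 in right and -0.52, -0.76 and -0.72 in left legs, against medians between -0.02 and 0.07 over all tested genes. Both legs were set against the same sham arrays and came from the same animals, so the 2 sets of values are not independent.

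**Figure D2:**
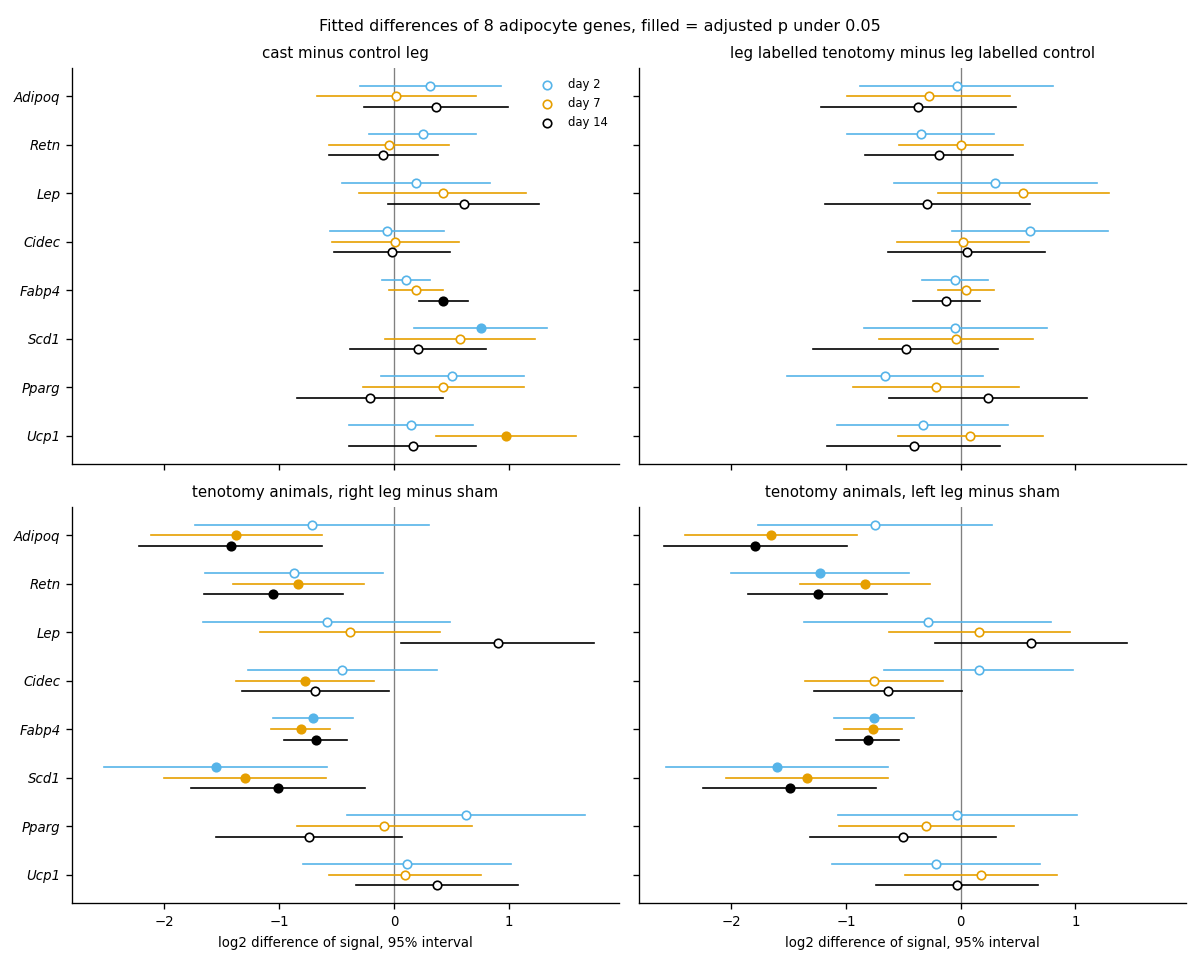
Fitted log2 differences of the 8 adipocyte genes with 95% intervals at days 2, 7 and 14, for cast against control legs, left (labelled tenotomy) against right (labelled control) legs, and each tenotomy leg against sham; filled points have an adjusted p under 0.05. Against sham, the filled points of Adipoq, Retn, Fabp4 and Scd1 are all left of 0 in both legs. Cidec has 1 filled point, left of 0, in right legs at day 7. Between the legs of the tenotomy animals no point is filled.

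Markers of other cells moved with the same contrast, and their part in it was not tested. Of all tested genes 35.1%, 41.3% and 36% were called in either direction in right legs at days 2, 7 and 14. In left legs the shares were 10.1%, 19.2% and 20.8%, and the counts below are to be read beside these. In right legs 10, 10 and 6 of 10 macrophage genes were higher than sham at days 2, 7 and 14, and their summed signal was 1812 to 8975 against 721.2 to 1161 in sham and naive arrays. In left legs the sum was 565.9 to 1075, with none called higher and 0, 1 and 3 called lower. Slow-fibre genes, which are abundant in the neighbouring soleus, fell in both: 6, 6 and 5 of 6 in right legs and 6, 6 and 4 in left legs, with sums of 808.3 to 10673 and 2582 to 16936 against 13259 to 27517. Of 6 tendon genes 1, 5 and 5 were called higher and none lower in right legs, while in left legs none was called higher and 1 lower at each day, Tnmd at -2.17, -1.05 and -1.25 (adjusted p = 9.43e-05, 0.00643 and 0.00188). Of 8 further muscle fibre genes 8, 7 and 0 were called lower and none higher in right legs, and 0, 6 and 0 lower and 0, 0 and 1 higher in left legs (Ckm -0.74, adjusted p = 0.00538 at day 7; Myh1 0.45, adjusted p = 0.0321 at day 14). Endothelial genes, which bear on Fabp4, summed to 957.4 to 2272 in right and 848.9 to 1582 in left legs against 953.3 to 1702. Of 8 endothelial genes 1, 2 and 2 were called higher and 3, 3 and 4 lower in right legs, and 1, 1 and 2 higher and 3, 4 and 4 lower in left legs. The endothelial counts went both ways, and nothing particular to that list is read from them. In right legs Kdr was lower (-1.77, adjusted p = 2.22e-10) and Vwf higher (0.93, adjusted p = 1.09e-05) at day 2, and Vwf was higher at day 14 (0.75, adjusted p = 4.83e-06). In left legs Tek (-1.003, adjusted p = 8.04e-05) and Kdr (-1.001, adjusted p = 0.00126) were lower at day 2, and Cldn5 (-0.79, adjusted p = 0.00149) and Emcn (-0.73, adjusted p = 1.84e-05) at day 14. The lowest signals of blood and skin genes were 0.3872 for Hba-a1 and 0.4411 for Krt1. Krt10 did not fall below 42.11, and Alas2 reached 632.6. Skin genes summed to 96.27 to 184.4 in right and 106.7 to 199.3 in left legs, against 111.9 to 187.1. Blood genes summed to 43.0 to 140.5 in right and 62.38 to 348.2 in left legs, against 59.99 to 516.7. At day 14 Alas2 was lower in right legs (-1.27, adjusted p = 0.0124). Hba-a1, with a median signal of 2.732 over all arrays, was higher in left legs (1.25, adjusted p = 0.00321). Nerve genes summed to 1240 to 4394 in right and 804.5 to 3708 in left legs, against 1104 to 2880. Of these, Sox10 was higher in left legs at day 7 (0.47, adjusted p = 0.0381). Casting legs reached higher skin sums, up to 1170 in control and 572.35 in cast legs (medians 129.1 and 124.1).

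The direct comparison of the 2 legs of the tenotomy animals gave no call among the 8 genes at day 2 (36.8% of all genes called), day 7 (33%) or day 14 (23.2%), and none of the 8 had an unadjusted p under 0.05 in limma. For Adipoq the left minus right difference was -0.03 (95% interval -0.88 to 0.81), -0.28 (-0.99 to 0.43) and -0.37 (-1.22 to 0.48) at days 2, 7 and 14. For Scd1 it was -0.05 (-0.85 to 0.75), -0.04 (-0.72 to 0.63) and -0.48 (-1.28 to 0.33), and for Fabp4 -0.05 (-0.34 to 0.24), 0.05 (-0.20 to 0.29) and -0.13 (-0.42 to 0.17). Differences inside these intervals were not detectable with these arrays. Cidec at day 2 was higher in the left leg in 4 of 5 animals (0.61, SE 0.34, adjusted p = 0.168), and passed without the animal with 1587 for Adipoq (0.98, adjusted p = 0.0209). The change of the leg difference from day 2 to day 14 gave no call (8.18% of all genes), and no member at an unadjusted p under 0.05.

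In the casting animals each day had 1 of the 8 genes called higher in the cast leg: Scd1 at day 2 (24.3% of all genes called), Ucp1 at day 7 (8.78%) and Fabp4 at day 14 (13.3%). Adipoq ran from 357.5 to 1037 (median 690.05) in control and 435.4 to 1419 (median 815.4) in cast legs over the 3 days, with group medians of 684.9, 703.75 and 693.0 in control and 734.4, 807.5 and 905.5 in cast legs. The groups overlapped, and the Adipoq differences were 0.32 (95% interval -0.30 to 0.93), 0.02 (-0.67 to 0.71) and 0.36 (-0.26 to 0.99) at days 2, 7 and 14. Retn group medians lay between 97.94 and 127.9 and Cidec medians between 52.26 and 62.6, with no difference past the threshold.

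Fabp4 at day 14 read 3332 to 4420 (median 3702) in cast legs and 2104 to 3112 (median 2939) in control legs. The cast leg was higher in 9 of 9 animals and the groups did not overlap. The fold was 1.35 (log2 difference 0.43, SE 0.11, adjusted p = 0.00302), and the call held in each setting tried that could be computed and without any single animal (adjusted p 0.00235 to 0.0175). At days 2 and 7 the differences were 0.10 and 0.19 (adjusted p = 0.563 and 0.391), and the rise from day 2 to day 14 was not called (0.33, SE 0.15, adjusted p = 0.149; no member called, 14.3% of all genes, and Fabp4 alone at an unadjusted p under 0.05). At day 14, 3 of the 4 Fabp4 probe sets passed (0.43, 0.59 and 0.67) and 1 did not (0.10, adjusted p = 0.766). The probe set with 0.67 at day 14 also passed at day 2 (0.58, adjusted p = 0.000264) and day 7 (0.49, adjusted p = 0.0215), where the other 3 did not. With the probe sets averaged, Fabp4 passed at day 2 (0.29, adjusted p = 0.00896) and day 7 (0.35, adjusted p = 0.0118) as well. All 10 macrophage genes were also called higher in cast legs at day 14 (median log2 difference 0.86; Lgals3, galectin-3, 1.43, adjusted p = 3.59e-06), while no endothelial gene was called (8 tested); their part in the Fabp4 result was not tested.

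Scd1 at day 2 read 1769 to 3708 (median 2510) in cast and 677.2 to 3107 (median 1305) in control legs. The cast leg was higher in 9 of 9 animals with both legs, with overlap between the groups. The fold was 1.69 (log2 difference 0.76, SE 0.29, adjusted p = 0.0472), close to the threshold. The call was lost without any of 6 animals (adjusted p up to 0.15), without the animal as a block (0.75, adjusted p = 0.0747), and the second probe set gave 0.43 (adjusted p = 0.346). At days 7 and 14 Scd1 was 0.58 and 0.21 higher without a call (adjusted p = 0.342 and 0.718).
Ucp1 at day 7 read 1.58 to 49.49 (median 6.773) in cast and 1.419 to 7.618 (median 2.896) in control legs. The cast leg was higher in 6 of 7 animals, mostly within the background range of the arrays. The log2 difference was 0.98 (SE 0.31, adjusted p = 0.0283), and the call was lost without any of 3 animals (adjusted p up to 0.332) and in a fit on the groups compared alone (0.98, adjusted p = 0.144). Ucp1 was above the 40th percentile on 6 of 111 arrays, where the filter needed 5. Arrays of this cast group, up to 49.49, were among the 6. The call thus rests in part on arrays that let the gene be tested, and no result is read from it.

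The difference between tenotomy and casting effects, taken as leg differences, gave no call among the 8 genes at day 2 (35% of all genes; Pparg -1.17 alone at an unadjusted p under 0.05, adjusted p = 0.0812) or day 7 (29.6%; Ucp1 -0.89, adjusted p = 0.124). At day 14 Fabp4 passed (-0.56, SE 0.18, adjusted p = 0.0138; 28.7%). With the right leg taken as operated, as in the series' description, the Fabp4 value was -0.30 (adjusted p = 0.34), and without either of 2 tenotomy animals it lost its call (adjusted p = 0.0541 and 0.0537).

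The controls were compared with each other. Sham minus naive gave no call among the 8 genes at day 2 (0% of all genes), day 7 (0.63%) or day 14 (2.23%). At an unadjusted p under 0.05 in limma, Cidec and Pparg were lower at day 2, Ucp1 at day 7, and Lep, Cidec and Fabp4 at day 14, and 1120, 1457 and 2345 of all genes passed that level. Casting control legs differed from naive legs for Fabp4 only (-0.66, SE 0.10, adjusted p = 9.96e-08; 32.6% of all genes called), where the casting control group medians were 3029, 3098 and 2939 against 4790. The other Fabp4 probe sets gave -0.36 (adjusted p = 0.0493), -1.28 (7.69e-15) and -0.03 (0.909). The second Scd1 probe set was 1.20 higher in casting control legs (adjusted p = 0.000271), where the first gave 0.45 (adjusted p = 0.23). These 2 groups were left and right legs from different animal series, so leg, handling and series cannot be told apart.

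The spread between arrays of a group was large for these genes. Pooled within groups, the SD on the log2 scale was 0.75 for Adipoq, 0.71 for Scd1, 0.60 for Cidec and 0.56 for Retn, against 0.29 for the median tested gene, and 0.25 for Fabp4. Adipoq was in place 215 of 16029 by this SD, and 0.1% of the 1000 genes nearest in mean level had a larger one. The shares were 0.2% for Scd1, 1.1% each for Retn and Cidec, and 14.2% for Fabp4. Lep, Pparg and Ucp1 had SDs of 0.76, 0.73 and 0.62, but 3.4%, 6.6% and 35% of genes at their low level varied more.
The spread of Adipoq was not even over the animal series. Its SD was 0.37 in casting, 0.46 in sham and naive, and 1.24 in tenotomy arrays, where it was place 4 of all tested genes. Scd1 had 0.50, 0.52 and 1.06, Retn 0.38, 0.36 and 0.86, and Cidec 0.47, 0.46 and 0.82, in the same order. Lep (0.76, 0.82 and 0.72), Pparg (0.76, 0.82 and 0.59) and Ucp1 (0.73, 0.63 and 0.38) did not have their largest SD in tenotomy arrays. The difference of spread between the series was not tested.

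**Figure D3:**
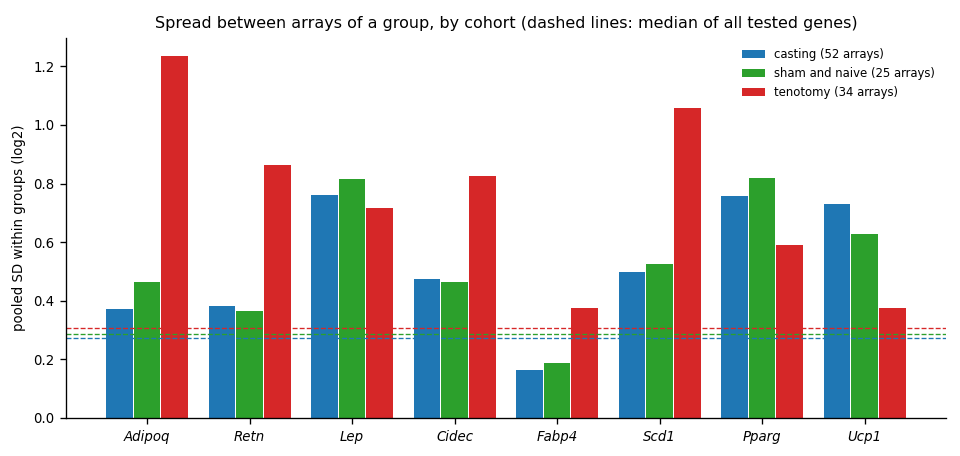
Pooled SD of log2 signal within groups for the 8 adipocyte genes, by animal series (52 casting, 25 sham and naive, and 34 tenotomy arrays); dashed lines give the median SD of all tested genes in each series. The tenotomy bars of Adipoq (1.24), Scd1 (1.06), Retn (0.86) and Cidec (0.82) are the tallest for those genes.

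Within groups the adipocyte genes moved together. Each array was expressed as its deviation from its group mean and averaged per animal, which gave 70 animals and 7 relations with Adipoq. For Cidec, Pearson's r was 0.87 and Spearman's rho 0.89; for Retn they were 0.84 and 0.74, for Fabp4 0.82 and 0.69, and for Scd1 0.81 and 0.74. Each had a permutation p of 1e-05, the smallest that 100000 resamples can give (adjusted p = 1.7e-05). Animals were permuted over all series together, though the series differ in spread, so these p-values do not test a relation within a series. Without the 2 animals farthest from the Adipoq median, r was 0.81, 0.77, 0.72 and 0.76 in that order. Lep and Pparg followed Adipoq more loosely (r 0.36 each, rho 0.40 and 0.44, permutation p = 0.0021 and 0.0023, adjusted p = 0.0027 each), and r was 0.41 and 0.33 without the 2 farthest animals. Ucp1 did not follow (r 0.03, rho 0.07, permutation p = 0.77, adjusted p = 0.77).
Within the animal series the Cidec relation was 0.79 in 27 casting, 0.95 in 18 tenotomy and 0.86 in 25 sham and naive animals. Retn gave 0.71, 0.96 and 0.53, Scd1 0.69, 0.91 and 0.64, and Fabp4 0.33, 0.91 and 0.75. Lep gave 0.31, 0.55 and 0.34 and Pparg 0.14, 0.52 and 0.61. All of these were positive, with the tenotomy value the highest but for Pparg.

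**Figure D4:**
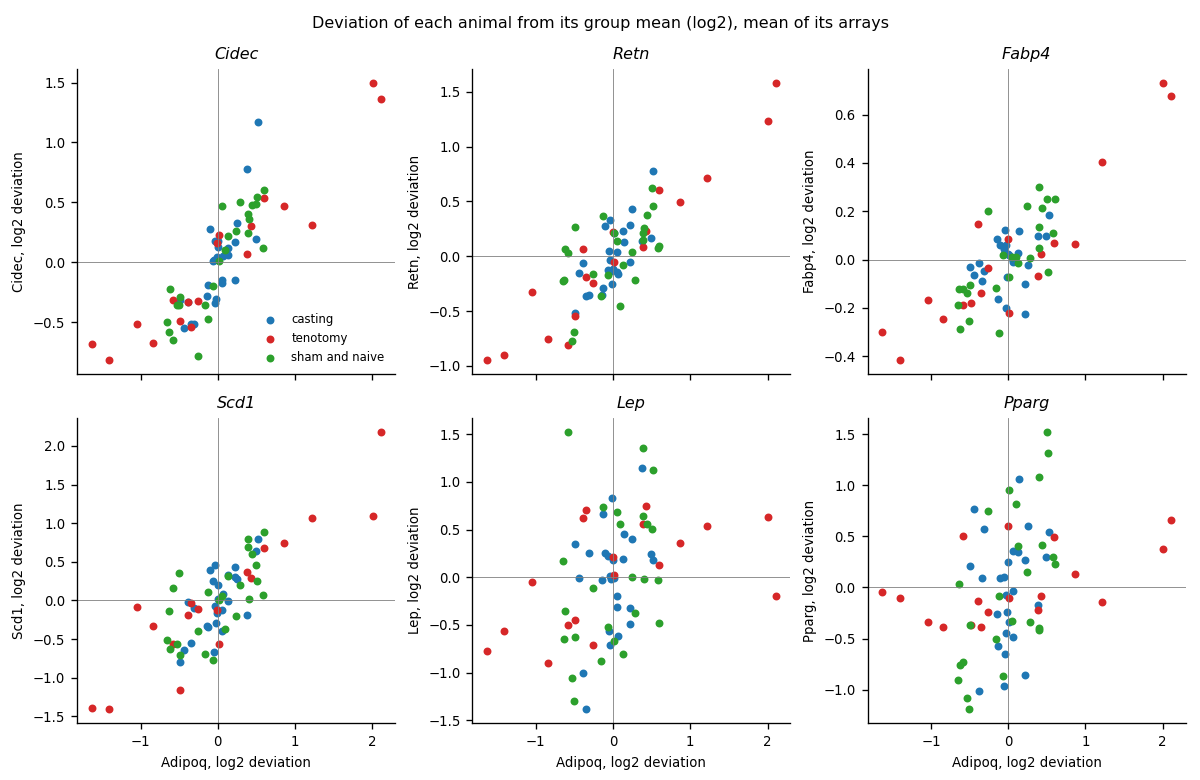
Deviation of each of 70 animals from its group mean (log2, mean of the animal's arrays) for 6 adipocyte genes against Adipoq, coloured by animal series. Cidec, Retn, Fabp4 and Scd1 rise with Adipoq (r 0.81 to 0.87), with tenotomy animals at both ends; Lep and Pparg scatter widely (r 0.36 each).

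The 2 legs of an animal were then compared over the 41 animals with both legs, in 8 relations. Here too the animals were permuted over both series together, so the p-values do not test either series alone. For Scd1 the left and right deviations correlated at r 0.67 (rho 0.50, permutation p = 1e-05, adjusted p = 8e-05), for Adipoq at 0.60 (rho 0.39, p = 8e-05, adjusted p = 0.00032 by permutation), and for Cidec and Retn at 0.53 each (rho 0.43 and 0.39, permutation p = 0.0003 and 0.00046, adjusted p = 0.0008 and 0.00092). Without the 2 farthest animals r was 0.54, 0.44, 0.39 and 0.43. Fabp4 gave 0.41 (rho 0.09, permutation p = 0.0078, adjusted p = 0.013), but r was -0.003 without the 2 farthest animals, so that relation rests on them. Lep (r 0.25, rho 0.26, adjusted permutation p = 0.16), Ucp1 (0.09, rho 0.03, 0.64) and Pparg (-0.05, rho -0.06, 0.75) gave no relation past the threshold.
Within the series, Adipoq gave r 0.68 in 16 tenotomy and 0.08 in 25 casting animals. Scd1 gave 0.77 and 0.42, Retn 0.61 and 0.29, Cidec 0.59 and 0.44, and Fabp4 0.67 and -0.29. The Adipoq relation thus did not hold within the casting series.

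**Figure D5:**
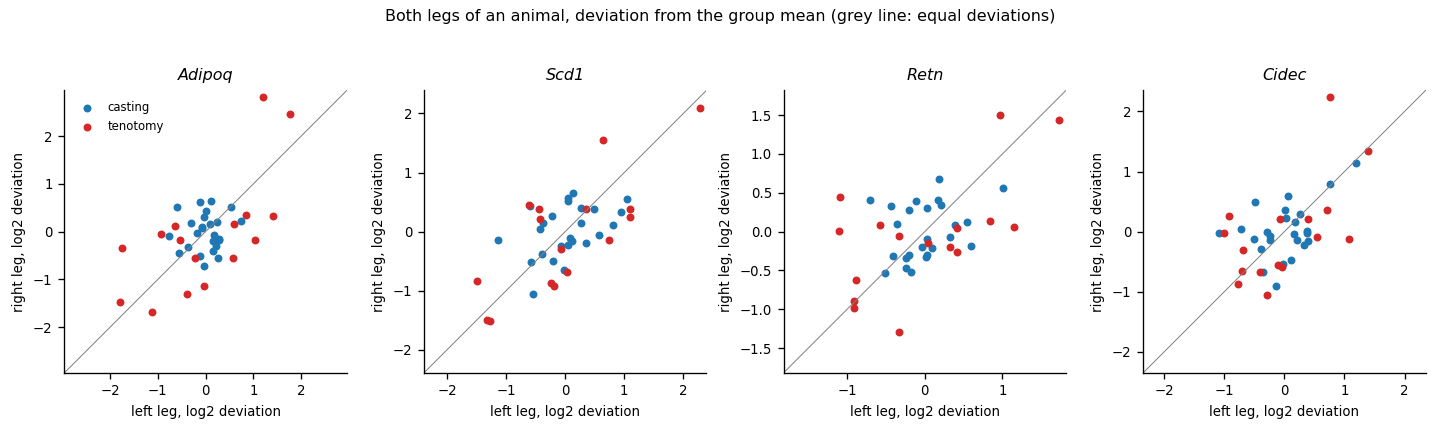
Deviation from the group mean (log2) of the right leg against the left leg of the same animal for Adipoq, Scd1, Retn and Cidec, in 25 casting and 16 tenotomy animals; the grey line marks equal deviations. Tenotomy animals spread along the line (r 0.68 for Adipoq), while casting animals cluster near 0 (r 0.08 for Adipoq).

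Among the 16029 tested genes, those whose deviations were most like those of Adipoq over the 111 arrays, leaving out members, were Cyp2e1 and Cdo1 (r 0.88 each), Tmem45b (0.81), Pon1 (0.75), Rbp4 and Gnai1 (0.73 each), Igfbp6 (0.72), Cebpa and Ifi27l2a (0.71 each) and Pgrmc1 (0.70). These are descriptions across arrays that share a scaling and, for 41 animals, an animal. Counting all tested genes, Cidec was in place 3 (r 0.86), Scd1 4 (0.82), Retn 5 (0.82) and Fabp4 7 (0.77), whereas Pparg was in place 665, Lep 769 and Ucp1 6397. Other adipocyte genes had a median r of 0.28 (21 genes), genes of fat synthesis 0.40 (20) and fibro-adipogenic progenitor genes 0.44 (9). Regulators of the fat cell programme gave 0.05 (18), brown fat genes 0.02 (12) and receptors of fat cell hormones 0.10 (7). Markers of other tissue between the fibres had medians above that of fat synthesis: 0.51 for nerve (3), 0.44 for tendon (6) and 0.41 for endothelium (8). Macrophage genes gave 0.26 (10) and blood genes 0.23 (3). Fast-fibre genes gave -0.01 (8), slow-fibre genes 0.01 (6) and skin genes 0.08 (5).

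Other genes of the adipocyte programme moved in both directions. Of 21 further adipocyte genes, right legs had 2, 3 and 2 called higher and 7, 9 and 4 lower than sham at days 2, 7 and 14, and left legs 2, 2 and 1 higher and 3, 4 and 4 lower. Of all tested genes 35.1%, 41.3% and 36% were called in right and 10.1%, 19.2% and 20.8% in left legs, so nothing particular to this list is read from the counts. A gene is named only for legs and days where it was among the 2 largest called differences of its list. It may also have been called in legs or days not listed. Cd36, a fatty acid transporter also abundant in oxidative fibres, was lower in right legs at days 7 and 14 (-1.17, adjusted p = 1.32e-14; -1.14, adjusted p = 1.05e-12) and in left legs at day 2 (-1.11, adjusted p = 4.37e-07). Mrap, a melanocortin receptor partner made in fat and adrenal, was lower in left legs at days 7 and 14 (-1.23 each, adjusted p = 0.00505 and 0.00841) and in right legs at day 14 (-1.03, adjusted p = 0.0187). Aqp7, of the same list, was higher in left legs at day 7 (0.95, adjusted p = 1.94e-06). Angptl4, a secreted inhibitor of lipoprotein lipase, was higher in right legs at days 2 and 7 (3.83, adjusted p = 9.85e-09; 2.14, adjusted p = 5.75e-06) and in left legs at day 2 (1.78, adjusted p = 0.0252), and lower in left legs at day 14 (-1.39, adjusted p = 0.0131).
Of 20 fat synthesis genes, 3, 4 and 3 were called higher and 7, 7 and 5 lower in right legs, and 1, 1 and 2 higher and 5, 5 and 8 lower in left legs. The naming rule was the same, so a leg or day not listed for a gene may also hold a call. Fasn, the fatty acid synthase, was lower in right legs at day 2 (-1.13, adjusted p = 0.0226) and left legs at days 7 and 14 (-0.99, adjusted p = 0.0108; -1.06, adjusted p = 0.0101). Acly, which supplies its substrate, was lower in left legs at days 2 and 7 (-1.31, adjusted p = 3.11e-05; -0.82, adjusted p = 0.000137). Dgat2, which makes triglyceride, was lower in right legs at days 2 and 7 (-1.52, adjusted p = 1.89e-08; -1.39, adjusted p = 5.95e-12).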

How the data were processed

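The authors deposited linear signal intensity values for 45101 probe sets on 111 Affymetrix arrays, made with GCOS and MAS5 per the submitters' processing notes. A trimmed mean of each column was 99.955 to 99.965, so arrays had been scaled. The number of arrays limits the precision.

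The platform annotation gave 1 gene to 34958 probe sets, several to 932 and none to 9211. Where a gene had several probe sets, the brightest on average stood for it. Values were log2(signal + 3.982), the pseudocount being the 20th percentile of all values, and genes above the array's 40th percentile in at least 5 arrays were tested. limma (version 3.58.1, R 4.3.3) fitted 1 mean for each of 16 groups, took the animal as a random block (correlation 0.10), and adjusted p-values by Benjamini-Hochberg within each of 21 comparisons at 0.05. Groups, legs and animals came from the labels: 70 animals, 41 with both legs (25 casting, 16 tenotomy). The deviations of an animal's 2 legs correlated over all genes at a mean r of 0.06, and 13 of 41 pairs were over 0.1. Correlations used two-sided permutation tests (scipy 1.17.1).

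The members, lists and comparisons were chosen with earlier results of these data known. Named were all members, at most 2 called genes per list and comparison with the largest difference, and the 10 genes most like Adipoq. A listed gene not named for a comparison may still have been called there. Single probe sets were tested in a second fit, chosen after seeing the data. Scripts were tested on simulated data. Alternatives covered the pseudocount, filter, normalization, probe set, block, variances, 2 arrays with a raised low end, the groups fitted, the operated leg and each animal left out.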

Additional observations from a re-analysis of the deposited data

Results flagged for a closer look

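In each group of 4 to 10 arrays the highest and lowest signals of each gene were tested for standing apart from the rest. Of 120 such tests 8 found an array apart, where chance alone gives about 1 in 20. In right (labelled control) tenotomy legs at day 7, 1 animal had the highest Adipoq signal, 963.4 against 192.5 for the next, and the highest Cidec signal, 65.52 against 27.54. Its left leg was also the highest of its group for both genes. Retn had 1 sham array at day 14 at 152.4, with the next at 117.4.

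Fabp4 had 1 low array among casting control legs at day 14 (2104, next 2605) and 1 at day 7 (2507, next 2959). Pparg had 1 low array among cast legs at day 7 (5.565, next 13.55) and 1 high array among left tenotomy legs at day 2 (12.29, next 3.109). Ucp1 had 1 high sham array at day 14, at 6.316 with the next at 2.765. The last 3 values lie in the background range of the arrays.

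For Fabp4 at day 14, the leg difference of the tenotomy animals (left minus right) was set against that of casting (cast minus control leg). They differed by a log2 value of -0.56 (limma, SE 0.18, adjusted p = 0.0138). This takes the left leg as operated, as labelled. With the right leg as operated, as in the series' description, the value was -0.30 and not called (adjusted p = 0.34).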

How the results depend on the processing

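Each of the 8 genes in each of the 21 comparisons was recomputed under each alternative. With a pseudocount of 1 or 16 all 168 results kept their direction and side of the threshold. Quantile normalization kept 163, with Scd1 (right leg against sham, day 14, -0.90, adjusted p = 0.0607) and Fabp4 (right leg against sham, day 2, -0.34, adjusted p = 0.158) losing their calls. Averaging a gene's probe sets kept 157 and reversed 1, Fabp4 in right legs against sham at day 14 (0.13, adjusted p = 0.401). With it the count of called genes was 2 for cast legs at day 7, 1 for right and 1 for left legs against sham at day 2, and 2 for casting control against naive legs. The count for cast legs at day 2 was 0 with no filter, with no replicate block (Scd1 0.75, adjusted p = 0.0747) and with robust variances, and with the animal as a fixed replicate block all 48 leg results kept their call. A stricter filter (60th percentile) dropped Lep, Pparg and Ucp1 and left 0 for cast legs at day 7. With the operated leg of the design text, the difference between tenotomy and casting at day 14 had 0 called. Fits on only the groups compared kept 123 of 128; Ucp1 in cast legs at day 7 (adjusted p = 0.144) and Retn in left legs at days 2 and 7 (0.101 and 0.0916) lost their calls, and Scd1 in cast legs at day 7 (0.0288) and Cidec in right legs at day 14 (0.0422) gained one. Leaving out each animal lowered the count from 1 to 0 for cast legs at days 2 and 7 and for the difference between tenotomy and casting at day 14, and raised it from 0 to 1 for tenotomy legs at day 2 and that difference at days 2 and 7. Against sham the counts ranged from 1 to 5 (2 with all animals) and 3 to 5 (5) in right legs at days 2 and 7, and from 1 to 3 (3) in left legs at day 2. The causes were not tested. Signal over background limits Lep, Pparg and Ucp1.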

Other observations

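Regulators of the fat cell programme were called in both directions in right tenotomy legs and, at day 2, in left legs. Of 18 adipogenic regulators, 5, 5 and 5 were called higher and 4, 4 and 3 lower in right tenotomy legs than in sham at days 2, 7 and 14, and 4, 1 and 5 higher and 1, 0 and 0 lower in left legs. Of all tested genes 35.1%, 41.3% and 36% were called in right and 10.1%, 19.2% and 20.8% in left legs, in either direction. Nothing particular to this list is read from the counts. The 1 gene called in left legs at day 7 was Gata2 (0.38, adjusted p = 0.0113). Cebpd and Cebpa, early and late C/EBP factors of adipogenesis, were higher in right legs at day 2 (2.39, adjusted p = 1.07e-07; 1.68, adjusted p = 1.57e-08). Klf4 was higher in right legs at day 7 (0.86, adjusted p = 3.26e-05) and day 14 (1.22, adjusted p = 1.07e-07). In the other direction, Nr1d1 was lower in right legs at day 14 (-0.94, adjusted p = 9.58e-05) and in left legs at day 2 (-0.77, adjusted p = 0.045). Several of these factors are also made by other cells of the muscle. Of 9 fibro-adipogenic progenitor genes, which mark the connective tissue cells that can become fat cells, 0, 6 and 5 were called higher in right legs, with Pi16 (1.99, adjusted p = 1.39e-12) and Lum (1.91, adjusted p = 7.03e-14) at day 7. In left legs 0, 1 and 0 were called higher and 3, 0 and 3 lower.

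Of 12 brown fat genes, 0, 2 and 1 were called higher and 4, 4 and 3 lower in right legs, and 0, 3 and 0 higher and 2, 2 and 2 lower in left legs. Fabp3 encodes a fatty acid carrier that is abundant in oxidative muscle as well as brown fat. It was lower in right legs at every day (-2.35, -1.37 and -1.19, adjusted p = 7.24e-20, 3.79e-15 and 3.23e-11). Left legs also had lower Fabp3 at every day (-1.08, -0.70 and -0.46, adjusted p = 1.83e-05, 3.81e-05 and 0.0128). In cast legs Fabp3 was lower at days 7 and 14 (-1.07 and -0.79, adjusted p = 2.52e-10 and 2.05e-07). Dio2, of the same list, was higher in right legs (adjusted p = 3.84e-05) and lower in left legs (adjusted p = 0.0369) at day 14. Zic1 was higher in left legs at day 7 (0.75, adjusted p = 0.00459). Of 7 genes for receptors of fat cell hormones, 1, 1 and 2 were called higher and 2, 2 and 1 lower in right legs, and 1, 1 and 2 higher and none lower in left legs. The shares of all tested genes called in either direction were 35.1%, 41.3% and 36% in right legs. They were 10.1%, 19.2% and 20.8% in left legs, and nothing particular to brown fat or receptor genes is read from the counts. Adipor1, an adiponectin receptor, was lower in right legs at each day (-0.73, -0.36 and -0.48; adjusted p = 5.11e-09, 4.16e-05 and 6.65e-07), and Cdh13, which binds adiponectin, was higher in left legs at each day (0.43, 0.39 and 0.45; adjusted p = 0.00611, 0.000149 and 4.29e-05). In cast legs Cdh13 was lower than in control legs at each day (-0.21, -0.31 and -0.26; adjusted p = 0.0126, 0.00248 and 0.00544).

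Between the legs of the tenotomy animals 6, 7 and 6 of the 21 further adipocyte genes were higher and 3, 3 and 4 lower in the left leg at days 2, 7 and 14. Of 20 fat synthesis genes 8, 7 and 6 were higher and 8, 4 and 6 lower. Of all tested genes 36.8%, 33% and 23.2% were called there.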
